A study of Mus musculus with 6 samples.

Results

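Genes of the B cell lineage were examined in marrow myeloid cells of mice that cannot make B cells and that had, or had not, received human leukaemic B cells. The set holds 9 genes, namely Cd79a, Cd79b, Ms4a1, Cd22, Pax5, Cd37, Spib, Btla and Pou2f2, and its members are all array probes whose annotated symbol, current or older, is one of these names. Of the 9 genes, 8 were matched to 12 of the 45281 probes of a mouse bead array, with 3 probes for Cd22, 2 each for Cd79b and Spib, and 1 for each of the other 5 genes. Cd79a matched no named probe by current symbol, older symbol, gene identifier or accession, and it was not analysed here.

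MEC1 mice were BALB/c Rag2-/-γc-/- animals given MEC1 cells by vein and examined at day 21, early in leukaemia, and control mice were untreated animals of the same strain and genotype. MEC1 is an established human line of chronic lymphocytic leukaemia B cells. There were 3 mice in each group, all 11 weeks old, named D, E and F in the MEC1 group and A, B and C in the control group, and values of single mice are given in these orders. Monocytes and macrophages were separated from the bone marrow of each mouse with magnetic beads, and 1 array was hybridised per mouse. Both groups lack Rag2 and the common gamma chain, so neither can assemble antigen receptors, and no mouse B or T cells mature. The block caused by loss of Rag2 lies at the progenitor stage, so early B lineage progenitors are not removed by that deletion itself. Loss of the common gamma chain also removes signalling by the receptor for interleukin-7, on which mouse B cell progenitors depend.

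B cell identity is set by transcription factors and displayed by a small group of surface proteins. Pax5 commits progenitors to the lineage, and Pou2f2 (Oct-2) and the ETS factor Spi-B act later, in mature B cells. Cd79a and Cd79b encode the paired chains that carry the signal of the B cell receptor, Cd22 dampens that signal, and Ms4a1 encodes CD20, the surface antigen targeted in B cell lymphomas. Several members are not restricted to B cells. Cd37, a tetraspanin, is found on many leukocytes, Btla, an inhibitory receptor, also on T cells and dendritic cells, Spib also in plasmacytoid dendritic cells, and Pou2f2 also in myeloid cells. The comparison therefore asks whether B lineage signal is present in hosts without mature mouse B cells and whether it is higher where human B cells circulate. The probes were made for mouse transcripts, and their match to human transcripts was not tested.

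Between 15545 and 15810 probes were detected (detection p under 0.05 against the negative controls of the array) in MEC1 mice and between 15998 and 16976 in control mice. The median raw intensity was 70.7 to 87.6 in MEC1 mice and 114 to 131 in control mice, and the lowest raw intensity that counted as detected was 84.6 to 109 in MEC1 mice and 140 to 172 in control mice. Raw values of the groups therefore sit on different backgrounds, and tests used normalized log2 intensities of the 16460 probes detected on at least 3 of the 6 arrays. Normalized values correlated across tested probes at Pearson's r of 0.923 to 0.967 among MEC1 mice, 0.983 to 0.991 among control mice and 0.926 to 0.971 across the groups. The single probe of Rag2 was detected on no array. Whether that probe lies in the deleted part was not known, and Il2rg, the gene of the common gamma chain, matched no named probe. Precision is limited by the small number of arrays.

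The members divided into undetected and detected genes, and the division was almost the same in both groups of mice. The 5 probes of Ms4a1, Pax5 and Cd22 were detected on none of the 6 arrays, and the 5 probes of Cd79b, Cd37, Btla and Pou2f2 were detected on all 6. The 2 probes of Spib were detected on some arrays. Over the whole array, 56.6% of probes were detected on no array and 28.4% on all 6. None of the 7 member probes that could be tested rose or fell in MEC1 mice at an adjusted p under 0.05, where limma called 1.54% of all tested probes, 0.869% higher and 0.668% lower. At an unadjusted p under 0.05 there were 2 of the 7 member probes, both higher in MEC1 mice, and 19.8% of all tested probes, where 10.2% of all tested probes were higher ones. The change of the median member probe was 0.41 on the log2 scale, and that of all tested probes was -0.02, but 1 of the 7 entered the test only through its detection in MEC1 mice. These p-values measure the spread between the 3 mice of a group.

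**Figure D1:**
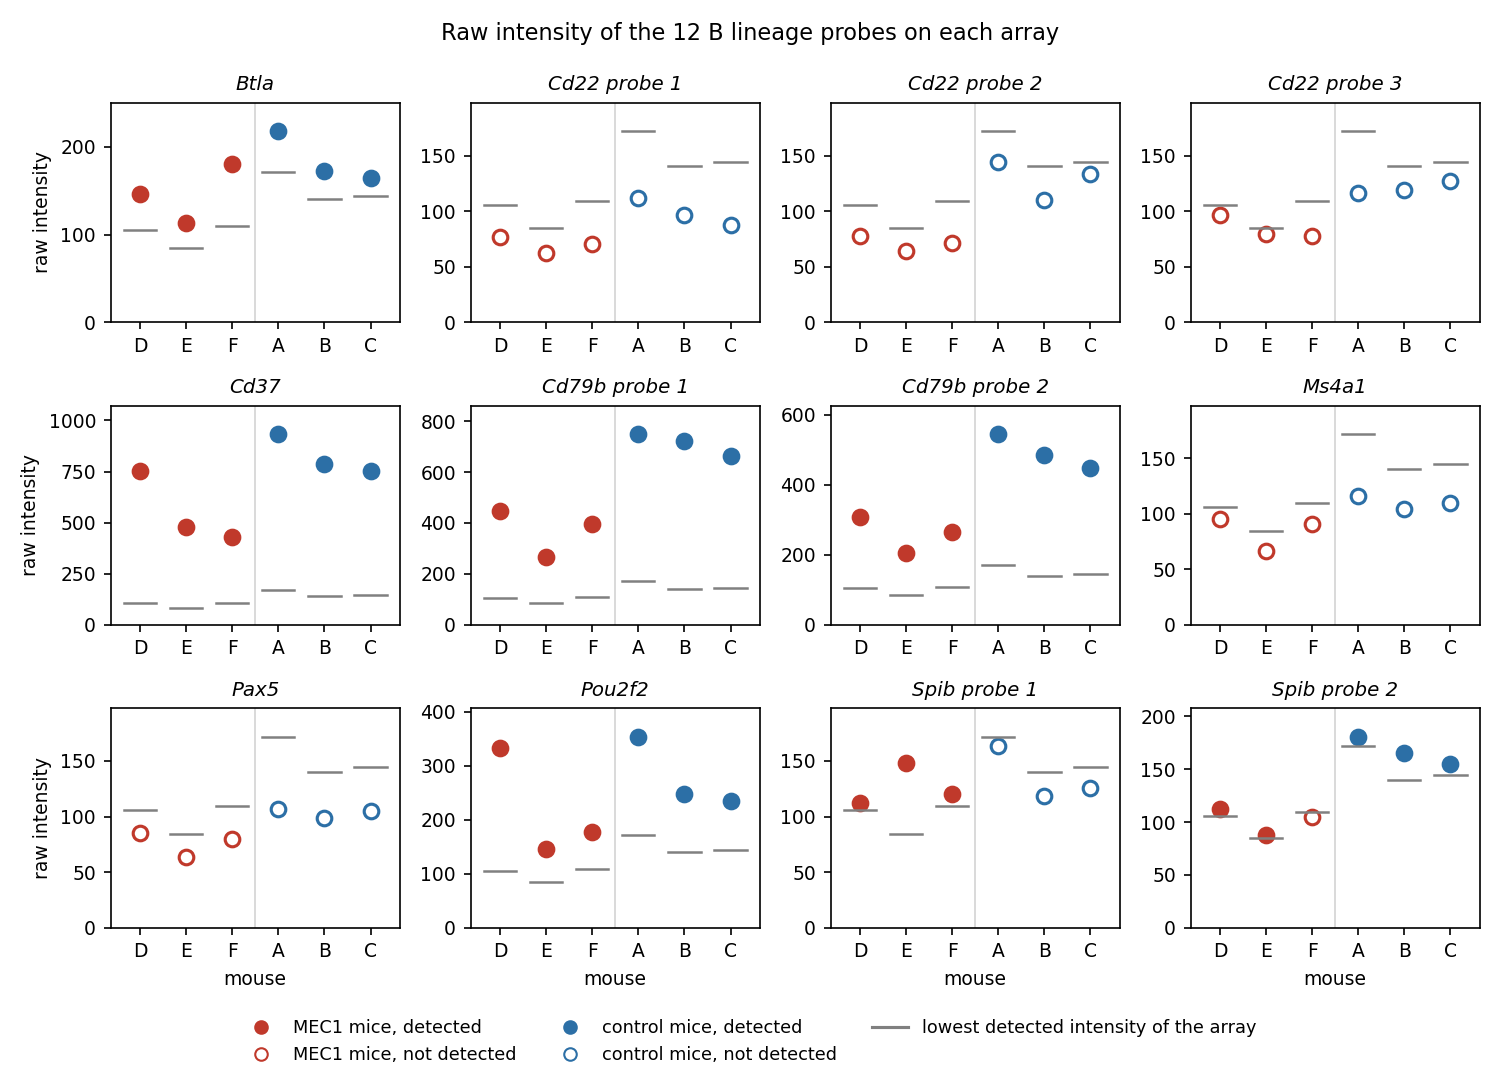
Raw intensity (vertical axis, linear, separate scale for each probe) of the 12 probes on the arrays of MEC1 mice D, E and F (red) and control mice A, B and C (blue), with filled points for detected probes and a grey bar at the lowest detected intensity of the array. Ms4a1, Pax5 and the 3 Cd22 probes lie under the bar on every array, Cd79b and Cd37 lie far above it, and Spib probe 1 lies above it on MEC1 arrays only.

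Ms4a1, Pax5 and Cd22 gave background signal. Ms4a1 (probe ILMN_2690194) had raw intensities of 95.4, 66.7 and 90.7 in MEC1 mice, against 116, 104 and 110 in control mice. Its smallest detection p over the 6 arrays was 0.107, in mouse D. Every one of these intensities lay below the detection level of its own array, so the lower raw values in MEC1 mice go with the lower background of those arrays.

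Pax5, the commitment factor (ILMN_2687307), had raw intensities of 85.1, 63.3 and 80.0 in MEC1 mice, against 107, 98.8 and 105 in control mice. Its smallest detection p was 0.229. With no filter on dim probes, in a fit of all 45281 probes that called 0.607% of them, Pax5 differed by a log2 change of 0.07 (95% confidence interval -0.15 to 0.28, limma adjusted p = 0.808) and Ms4a1 by 0.23 (-0.07 to 0.54, adjusted p = 0.499). Both intervals include 0, and both describe probes that were not well above background in either group, so they set no level for these genes.

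The 3 probes of Cd22, the sialic acid-binding inhibitory receptor, were also undetected throughout. The first (ILMN_1221913) had raw intensities of 76.6, 62.5 and 70.1 in MEC1 mice and 111, 96.1 and 87.6 in control mice. The second (ILMN_3079866) had 77.9, 64.2 and 71.3 in MEC1 mice and 144, 110 and 133 in control mice. The third (ILMN_3159170) had 96.1, 79.6 and 77.9 in MEC1 mice and 116, 119 and 127 in control mice. The closest any of them came to detection was a detection p of 0.0801 for the second probe in control mouse C. In the fit with no filter the probes gave log2 changes of -0.01, -0.43 and 0.14 (limma adjusted p = 0.971, 0.203 and 0.795), so no Cd22 probe was higher in MEC1 mice beyond the spread between mice. The second probe had an interval of -0.72 to -0.14 (unadjusted p = 0.00662 in limma), which lies below 0, at intensities that no array detected.

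Cd79b, the signalling partner of Cd79a in the B cell receptor, was detected on every array at both of its probes. The first (ILMN_2610822) had raw intensities of 447, 266 and 398 in MEC1 mice and 749, 723 and 664 in control mice. On the normalized log2 scale these became 8.83, 8.91 and 8.83 in MEC1 mice, against 8.90, 8.90 and 8.82 in control mice. The groups overlapped almost completely after normalization, and this was the member that varied least over the 6 mice, with an SD of 0.04.

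The mean of the first Cd79b probe was 8.86 ± 0.04 in MEC1 mice and 8.87 ± 0.04 in control mice (SD, n = 3 each). The log2 change was -0.02 ± 0.18 (SE) with a 95% confidence interval of -0.42 to 0.38 (limma adjusted p = 0.965), which holds changes between 0.749-fold and 1.30-fold. The second probe (ILMN_2661523) had normalized values of 8.24, 8.41 and 8.09 in MEC1 mice and 8.33, 8.24 and 8.15 in control mice. Its log2 change was 0.00 ± 0.21 (SE; interval -0.46 to 0.47, adjusted p = 0.994), and the probes correlated over the 6 arrays at Pearson's r of 0.813, as a description. Cd79b signal was thus present in control mice, which carried no human cells, and which cells gave it was not tested. Both intervals included 0, but they hold for quantile-normalized values only. When the arrays were instead scaled to 1 median, which shifted the tested probes as a whole by -0.48 and called 12.8% of them, the Cd79b probes gave -0.56 and -0.55, or -0.07 for each relative to that shift, and neither passed.

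Cd37, the tetraspanin, had raw intensities of 753, 480 and 430 in MEC1 mice and 933, 787 and 754 in control mice (ILMN_2929526). Its normalized values were 9.66, 9.92 and 8.97 in MEC1 mice and 9.26, 9.04 and 9.04 in control mice. Mice D and E lay above all control mice and mouse F below them, so the groups overlapped. The log2 change of 0.41 ± 0.25 (SE) had an interval of -0.17 to 0.98 and did not pass (limma adjusted p = 0.395). It was 0.21 without mouse E and 0.68 without mouse F. Under median scaling the sign turned, to -0.14, and relative to the shift of the tested probes as a whole it was 0.35.

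Pou2f2, the octamer-binding factor (ILMN_2687602), had raw intensities of 332, 145 and 177 in MEC1 mice and 354, 247 and 235 in control mice. It had normalized values of 8.37, 7.64 and 7.27 in MEC1 mice and 7.50, 6.95 and 6.87 in control mice. Mouse D had the highest value and mice E and F lay near control mouse A, so the groups overlapped. The log2 change of 0.65 ± 0.34 (SE; interval -0.11 to 1.41) did not pass (limma adjusted p = 0.312). It was 0.35 without mouse D, at most 0.90 when another mouse was left out, and 0.12 under median scaling. Its mean was 7.76 ± 0.56 in MEC1 mice and 7.10 ± 0.35 in control mice (SD, n = 3 each).

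Btla, the inhibitory receptor that binds the TNF receptor family member HVEM, was separated between the groups but did not pass the test. Its raw intensities were 146, 113 and 181 in MEC1 mice and 218, 173 and 165 in control mice (ILMN_3116935), above the detection level of each array. Its normalized values were 6.86, 6.94 and 7.31 in MEC1 mice and 6.40, 6.14 and 6.04 in control mice. All 3 MEC1 mice thus lay above all 3 control mice after normalization, while the raw intensities overlapped.

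The log2 change of Btla was 0.85 ± 0.27 (SE; interval 0.24 to 1.45, unadjusted p = 0.0112), and limma's adjusted p over all tested probes was 0.145. The groups did not overlap at 2 of the 7 tested member probes, Btla and Spib probe 1, and at 27.7% of all tested probes, with 14.4% of all tested probes being higher in MEC1 mice without overlap. Both member probes were higher in MEC1 mice, and the Spib probe entered the test only through its detection in that group, so the count is given as a description.

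**Figure D2:**
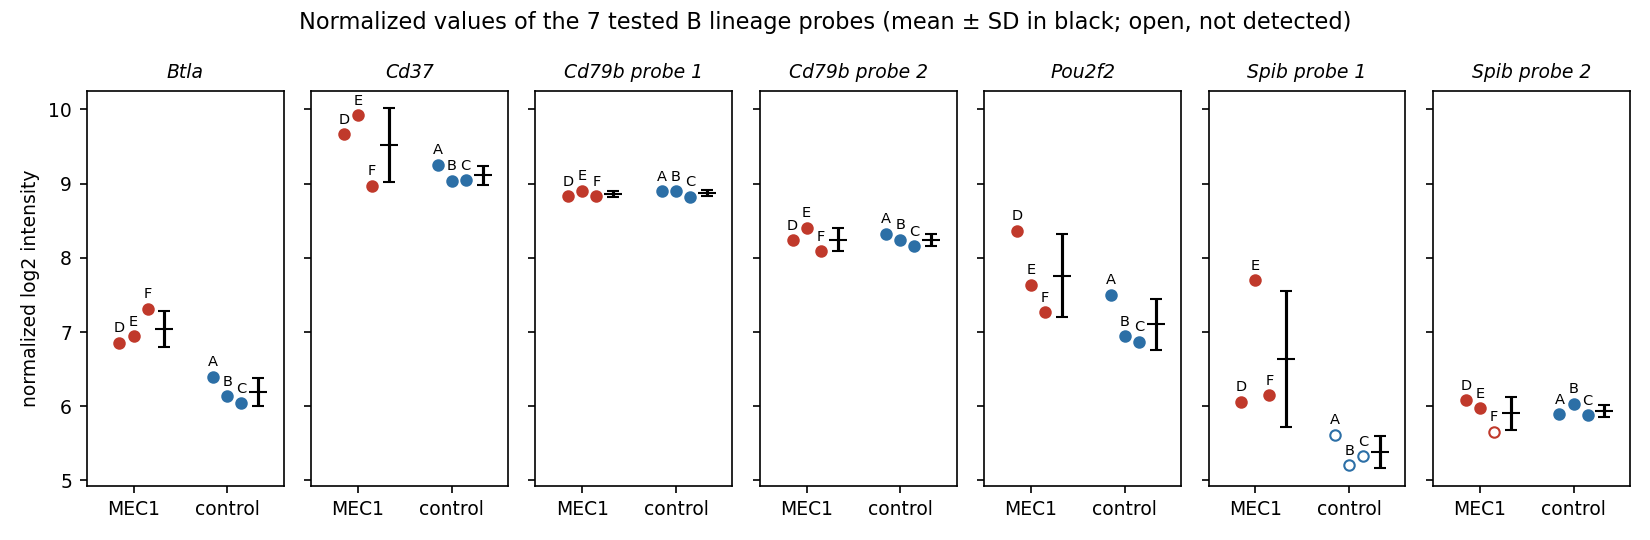
Normalized log2 intensity (vertical axis, shared) of the 7 tested probes in MEC1 mice D, E and F (red, left) and control mice A, B and C (blue, right), with the mean and SD in black and open points for arrays on which the probe was not detected. Cd79b is level between the groups at both probes, Btla and Spib probe 1 are the probes without overlap, and mouse E stands apart at Spib probe 1.

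The probes of Spib, the gene of the ETS factor Spi-B, disagreed with each other. The first (ILMN_1233927) had raw intensities of 112, 149 and 120 in MEC1 mice, detected on all 3 arrays, and 163, 118 and 126 in control mice, detected on none. Its normalized values were 6.06, 7.70 and 6.15 in MEC1 mice and 5.62, 5.20 and 5.33 in control mice. Mouse E was well above every other mouse, and mice D and F lay just above the detection level of their arrays.

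No control array detected the first Spib probe. With control values raised to the detection level, its mean was 1.93-fold higher in MEC1 mice, which is not a lower limit. The fitted change had a 95% confidence interval of 1.22-fold to 4.64-fold and did not pass (limma adjusted p = 0.167). The probe entered the test only through the MEC1 arrays. Of all probes on the array, 130 or 0.287% had the same pattern of detection, and 241 or 0.532% had the opposite one. Without mouse D the probe passed (limma adjusted p = 0.0419), in a fit that called 7.40% of all tested probes and, as higher, 4.24% of all tested probes, and without mouse E it did not (adjusted p = 0.227). The controls were not above background in either case, so the size of the difference is not measured.

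The second Spib probe (ILMN_2933168) had normalized values of 6.08, 5.97 and 5.66 in MEC1 mice and 5.89, 6.03 and 5.88 in control mice. It was detected on all control arrays and on those of mice D and E. Its log2 change was -0.03 ± 0.23 (SE; interval -0.56 to 0.50, limma adjusted p = 0.948), and the Spib probes correlated over the 6 arrays at Pearson's r of 0.01. A difference in Spib between the groups was therefore seen at 1 of 2 probes and did not pass at either.

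**Figure D3:**
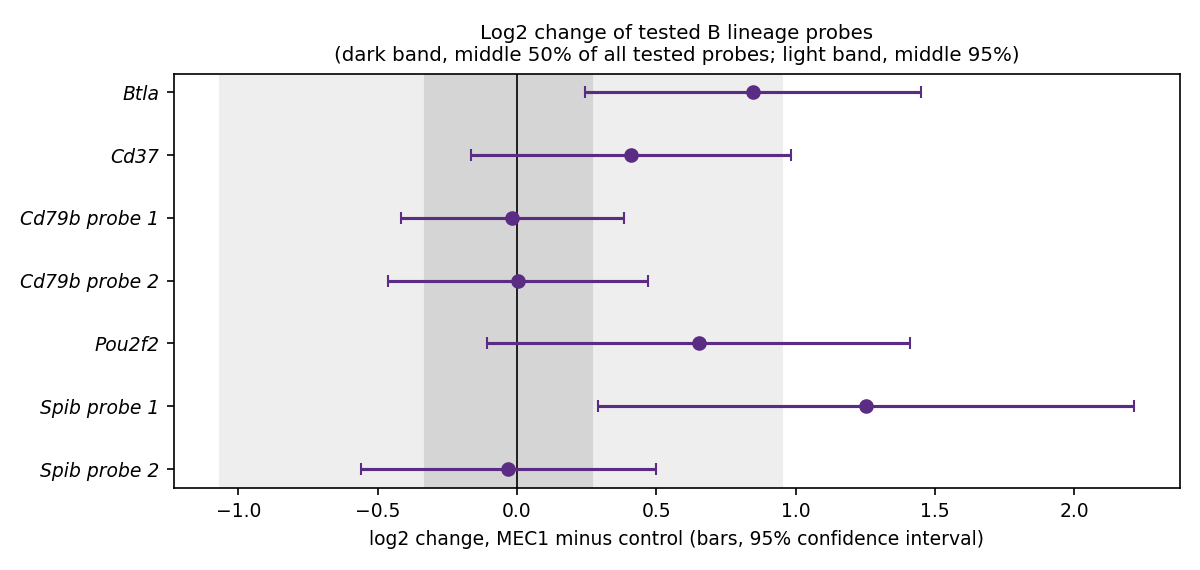
Log2 change, MEC1 minus control (horizontal axis), of the 7 tested probes with 95% confidence intervals, over bands that hold the middle 50% (dark) and middle 95% (light) of all tested probes. The Cd79b probes lie near 0. Every interval reaches into the light band, and every one except that of the first Spib probe also reaches into the dark band.

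In 3 further lists of B lineage genes, 58 of 110 probes (52.7%) were detected on no array, beside 56.6% of all probes, and 21 of 55 genes were undetected at every probe. A list of 28 other genes of the B cell receptor and of mature B cells had 24 with a probe, and 9 of these were detected on no array at any probe, while 10 had a probe detected on all 6. Of its 18 tested probes none passed, 8 had a log2 change above 0 and 10 below 0, and the median was -0.11, against -0.02 for all tested probes. The genes with the smallest p were Cd40, a receptor for T cell help that macrophages also carry, Cd180, a Toll-like receptor relative of B cells and myeloid cells, Swap70, an adaptor of B cell activation, and Ebi3, a cytokine subunit. Their log2 changes were 0.84 for Cd40, -0.80 for Cd180, -0.48 for Swap70 and -0.27 for Ebi3, and none of these passed in limma (adjusted p = 0.277, 0.320, 0.384 and 0.483).

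No early progenitor gene passed the test either. Of 22 genes with a probe, 7 were detected on no array and 6 had a probe detected on all 6. None of 19 tested probes passed, 9 had a log2 change above 0 and 10 below 0, and the median was -0.05. Bcl11a, a transcription factor of early B cells and other progenitors, had the smallest p, with a log2 change of -0.79 ± 0.28 (SE; limma adjusted p = 0.175) at 1 probe and -0.20 at another. Bst1, a surface enzyme of marrow cells, gave 0.96 and Sox4, a progenitor factor, gave 0.55, and neither passed. Myb, another progenitor factor, was detected on no MEC1 array and on all 3 control arrays. With MEC1 values raised to the detection level, its mean was 1.07-fold lower in MEC1 mice, which is not a lower limit. The fitted log2 change of Myb was -0.43 and did not pass (limma unadjusted p = 0.0784, adjusted p = 0.304).

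The surrogate light chain genes, which mark progenitors, are named here because of their values. Igll1, Vpreb2 and Vpreb3 were detected on no array. Vpreb1 was detected on no MEC1 array and on 2 of 3 control arrays, with raw intensities of 99.4, 79.9 and 83.7 in MEC1 mice and 168, 161 and 147 in control mice. Control mice B and C were the ones with detection. The lowest raw intensity that counted as detected was 84.6 to 109 in MEC1 mice and 140 to 172 in control mice. The raw values of Vpreb1 therefore give no measure of a difference between the groups.

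A single gene of the plasma cell list passed the test, and it fell. Irf4, a transcription factor of plasma cells that macrophages and dendritic cells also use, had normalized values of 5.95, 5.46 and 5.27 in MEC1 mice and 7.31, 7.08 and 7.38 in control mice. It was detected on 1 of 3 MEC1 arrays and on all 3 control arrays, and all MEC1 mice lay below all control mice. Its log2 change was -1.70 ± 0.28 (SE; limma adjusted p = 0.0269). Mice E and F were not above background, so the size of the fall is not measured. The change was -0.85 without background correction and -2.01 under median scaling. The call was lost when any mouse other than D was left out, with adjusted p between 0.0613 and 0.171 and the log2 change between -1.79 and -1.55. The other tested genes of that list, Fkbp11, a folding enzyme, Xbp1, a factor of the secretory programme, and Mzb1, a chaperone of antibody-secreting cells, had log2 changes of 0.70, -0.04 and 0.04 and did not pass (Xbp1 and Mzb1 took either sign as single mice were left out). The immunoglobulin joining chain gene Jchain, Tnfrsf17, Sdc1, Prdm1 and Derl3 were detected on no array.

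Markers of other cells were read beside these values, since several members are expressed outside the B lineage. Plasmacytoid dendritic cell markers, which share Ly6d and Blnk with the B lineage lists, had a probe detected on all 6 arrays for 7 of 13 genes, with summed normalized intensities over the list of 5101 to 5634 in MEC1 mice and 4797 to 5877 in control mice. Of their 11 tested probes 1 fell, that of the RNA sensor Tlr7, with a log2 change of -1.23 (limma adjusted p = 0.0496), and the median was -0.33. The Tlr7 call held without mouse D and was lost without any other mouse, with adjusted p between 0.0786 and 0.249. Klk1, a kallikrein, gave -1.33 and did not pass. Siglech, a defining receptor of these cells singled out after its values were seen, was detected on all 6 arrays at 2 of its 3 probes and gave -0.40 at both. Their part in the values of Spib and Btla was not tested.

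T cell markers, read in hosts without mature mouse T cells, had 13 genes with a probe, 7 of them detected on no array. Of the 27 probes of the list, 21 were detected on no array and 3 could be tested. The list's sum was 3395 to 6885 in MEC1 mice and 2594 to 2944 in control mice. None of the 3 tested probes passed, the closest being Thy1, with a log2 change of 1.08 (limma adjusted p = 0.0850), and Cd8b1, with 0.84 (adjusted p = 0.167), while Cd3e, Cd3g, Cd5 and Trat1, singled out after their values were seen, were detected on no array. The source of these values and their relation to Btla were not tested. Conventional dendritic cell markers had 6 of 11 genes detected on no array and none of 6 tested probes passed, with Batf3 at -1.09 and Dpp4 at 0.31, although Batf3 passed without mouse D (-1.35, limma adjusted p = 0.0134). Their sum was 944 to 1043 in MEC1 mice and 957 to 986 in control mice.

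Markers of the cells that were purified, monocytes and macrophages, were detected for each of 10 genes with a probe. Of their 14 tested probes 3 had a log2 change above 0 and 11 below 0, and the median was -0.29. Among these probes Fcgr1, the high-affinity Fc receptor, rose by a log2 change of 1.77 (limma adjusted p = 0.0170). In the other direction, 1 of 3 probes of Lyz2, lysozyme, fell by 0.45 (adjusted p = 0.0491). Without control mouse A, B or C neither call held (adjusted p of 0.110 to 0.129 for Fcgr1 and 0.201 to 0.232 for Lyz2), and that of Lyz2 was also lost without MEC1 mouse E (0.135). The list's sum was 55708 to 57434 in MEC1 mice and 67677 to 70569 in control mice, and that of the erythroid list was 55471 to 91176 in MEC1 mice and 104301 to 117593 in control mice. Among erythroid markers Hbb-bt and Hba-a1 gave -0.43 and -0.42, and none of 9 tested probes passed, although Hbb-bt did without mouse D (-0.54, limma adjusted p = 0.0183). In a mixed sample, fewer cells of a type and less RNA per cell cannot be told apart.

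In the remaining marker lists no tested probe passed with all mice, although Col1a1 did without mouse D (-1.41, limma adjusted p = 0.0159). The genes with the smallest p, with their log2 changes, were Lcn2 (0.70) and S100a8 (0.27) of neutrophils, Epx (0.86) and Prg3 (0.54) of eosinophils, Prss34 (-0.16) and Cd200r3 (-0.45) of basophils and mast cells, Itga2b (0.73) and Gp9 (-0.55) of megakaryocytes, Col1a1 (-1.13) and Kdr of stroma and vessels, and Nkg7 (0.48) and Klrb1c (-0.26) of NK cells. No control array detected Kdr, and with control values raised to the detection level its mean was 1.37-fold higher in MEC1 mice.

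**Figure D4:**
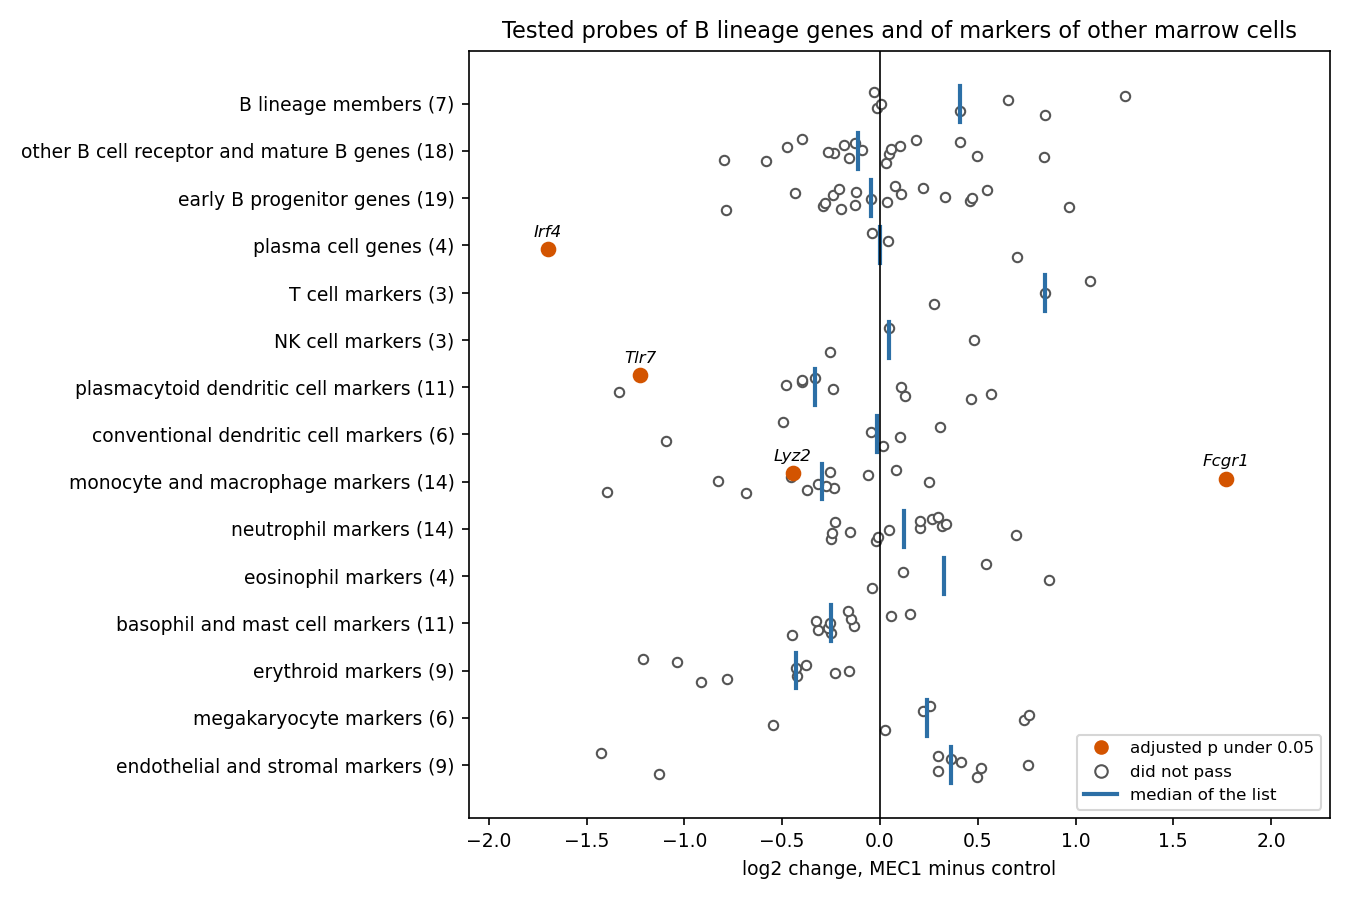
Log2 change, MEC1 minus control (horizontal axis), of each tested probe of the B lineage members, the 3 further B lineage lists and the marker lists, with the number of tested probes in parentheses, the median as a blue bar and called probes in orange. Irf4, Tlr7, Lyz2 and Fcgr1 are the probes with an adjusted p under 0.05, and none of the 7 member probes is among them.

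The detected members were also compared with other genes by their profile over the 6 arrays. Among 1791 other named genes with an SD of at least 0.5 over the arrays, Cd37 was most like Hpcal1 and Cyp4f16 (Pearson's r of 0.992 and 0.985), and Pou2f2 was most like Adam15 and Pik3cd (0.994 and 0.986). Btla was most like Dcaf5 and Slc66a1 (0.973 for both), and the first Spib probe was most like Zfp281 and Ifi35 (0.989 and 0.982). Cd79b, which hardly varied, had lower values, with Edc3 and Anxa7 (0.900 and 0.850). No gene was nearest to 2 members. With 6 arrays and so many candidates these correlations are descriptions only, and the arrays share the group difference.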

How the data were processed

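Total RNA of each mouse was labelled as cRNA and hybridised to an Illumina mouse bead array, per the labels' protocols. Per the file headers, the authors deposited a non-normalized intensity (average signal) and a detection p-value for each probe and array. GenomeStudio is named by the submitters' processing notes; its version is not given in the sources used here. A deposited table of processed intensity values keeps each array's probe order (Spearman's rho of 1), and its columns share 1 distribution, with medians of 100.7 to 100.8 on the linear scale. It served only as an alternative.

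Background correction and normalization used neqc (limma 3.58.1, R 4.3.3; negative controls inferred from detection p-values, offset 16, quantile normalization, log2). The offset shrinks changes of dim probes. Probes detected on at least 3 of 6 arrays were fitted by group with lmFit and eBayes (trend, robust), with two-sided p-values adjusted by Benjamini-Hochberg over 16460 probes and called under 0.05. Where only 1 group was detected, the fold given compares its mean with values of the other group raised to the lowest detected value of each array. That fold carries no sampling error and is not a lower limit of the difference. Symbols were updated through Entrez ID for 34807 of 34885 probes with 1 symbol, while 18 probes had several and 10378 were unnamed here.

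Arrays were grouped by sample title. The mouse letters are not shared between groups, so samples were not paired, and all arrays lay on 1 chip. Array letters on that chip were A to C for control mice and D to F for MEC1 mice. Place on the chip therefore cannot be told apart from group. The steps were tested on simulated arrays, in which changes were added to brighter probes only. Changes of probes near background were therefore not covered. Members and lists were chosen with earlier results of these data known. Beyond the members, the text names called list genes, up to 4 genes of each B lineage list and 2 of each marker list with the smallest p, and, by Pearson's r, the 2 genes most like each member. List sums add the normalized linear intensity of the brightest probe of each gene.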

Additional observations from a re-analysis of the deposited data

How the results depend on the processing

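Over 13 alternatives, 7 of processing and 6 that left out 1 mouse, a member probe was called in 1 case, the first Spib probe without MEC1 mouse D, so leaving out a mouse gave 0 to 1 called member probes. All called probes numbered 253 with all mice, 5 to 1218 when 1 mouse was left out, 2111 under median scaling (130 higher and 1981 lower) and 95 without intensity trend and robust variance. Called probes of the 3 further B lineage lists numbered 1 with all mice, 0 to 1 when 1 mouse was left out, 3 under median scaling, with Cd180 (log2 change -1.23) and Bcl11a (-1.32) added, and 0 among probes detected on all 6 arrays, which leaves out Irf4. Under median scaling, which moved all tested probes by -0.48, the change turned to -0.14 for Cd37, -0.55 for the second Cd79b probe, -0.37 for Mzb1 and -0.25 for Dpp4, none of them called; the cause was not tested. Leaving out 1 mouse gave -0.0766 to 0.0824 for the second Cd79b probe, -0.12 to 0.0915 for the second Spib probe, -0.16 to 0.0682 for Xbp1 and -0.22 to 0.24 for Mzb1, and changes of that size had no settled sign. The first Cd79b probe stayed below 0 under each alternative, with values from -0.56, under median scaling, to -0.003. Leaving out 1 mouse gave -0.04 to -0.003 for it (limma adjusted p of 0.917 to 0.996), so its sign was not settled either. Btla stayed above 0 under each, from 0.33 to 0.95, with an adjusted p between 0.0575 and 0.457. Tlr7 and Lyz2, called close to the threshold, were lost under 5 and 6 of the 7 processing alternatives, while Irf4 was called under each of the 6 that tested it. Under median scaling Klk1 (-1.66), Batf3 (-1.54) and Col1a1 (-1.32) passed as well, and without MEC1 mouse D Batf3 (-1.35), Col1a1 (-1.41) and Hbb-bt (-0.54) passed. Signal close to background limits what can be said of Ms4a1, Pax5, Cd22 and Spib.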
